A study of Mus musculus with 4 samples.

Results

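The genes described here are 43 genes of the primary cilium and of the Hedgehog pathway, out of 24185 gene symbols on the array. The list was selected on the CPEB2 IgG to control IgG ratios of Wdr19 and Shh, which were seen to be among the highest on these arrays, and all other members were then taken by pathway. It holds 32 cilium genes, which are 5 genes of the intraflagellar transport complex IFT-A, 10 of IFT-B, 10 of the Bardet-Biedl syndrome (BBS) group and 7 of the transition zone and other cilium functions, and 11 Hedgehog genes, which are 7 for the ligand and its receptors and 4 for transcription. CPEB2 IgG against control IgG is the contrast that chose the list, so its values are given as a description. RNA was recovered by RNA immunoprecipitation (RIP), in which an antibody on beads pulls down a protein together with the RNA it holds. The lysate came from cortex and hippocampus of 8-week-old male C57BL/6 mice, it was split between CPEB2 IgG and control IgG, and 2 experiments gave 2 arrays for each antibody. The labels list no modified allele and no treatment of the mice, and how many mice made up a lysate is not given in the sources used here. The description of these precipitates mentions CPEB3 IgG in 1 place, but titles and protocol give CPEB2, which is the name used here. Control IgG gives the background of the method, and RNA of the lysate before precipitation is not analysed here.

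The primary cilium is a single antenna-like projection that most cells of the brain, neurons and astrocytes included, carry on their surface. Intraflagellar transport moves proteins along it. IFT-B with its kinesin motor carries cargo to the tip, and IFT-A with dynein brings it back and helps membrane receptors to enter. The BBSome, a coat-like complex of BBS proteins, carries receptors out of the cilium, and the transition zone at the base acts as a gate. Vertebrate Hedgehog signalling runs through this organelle. Without ligand, the receptor Ptch1 keeps Smo out of the cilium and the Gli factors are cut to repressors. Once Sonic hedgehog (Shh) binds Ptch1 with a coreceptor, Smo enters the cilium and Gli activators reach the nucleus. CPEB2 is a cytoplasmic polyadenylation element binding protein, a family that binds U-rich elements (CPEs) in the 3′UTR of mRNAs and controls their translation.

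The 43 genes were read by 63 probes of 60 bases on 81 spots of each array, and 18 genes had several probes. A probe was well above background on all 4 arrays in 54 cases, on 3 arrays in 3, on 2 arrays in 2 and on 1 array in 4. The brightest probe stood for a gene, and all 43 passed the filter on dim probes. Wdr19 and Shh passed it only through the CPEB2 IgG arrays, so the filter could keep them only if they were higher there. Over the whole array, 68.4% to 74.1% of 59305 spots were well above background and none was saturated. All arrays were on 1 slide with each antibody at positions of its own, and an effect of position cannot be told apart from that of the antibody. The Cpeb2 transcript itself gave 2409.7 and 1877 with CPEB2 IgG against 299 and 297 with control IgG, and Gapdh, a housekeeping transcript, gave 48250 and 39694 against 253696 and 266689.

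The probes shown next carry the results that follow. Each line gives 30 of the 60 bases of a probe, read in the sense of the transcript, and capitals mark the letters TTTTAT or TTTTAAT, which are the DNA form of CPE sequences. Wdr19 and Shh each had 1 probe, and their ratios chose the list. Gas1 and Nphp4 had probes that disagreed, and Cdon, Ptch1, Rpgrip1l and Ift80 are the other genes with CPE letters in a probe. The last pair is from Smo, whose probes lay 306 bases apart.
Wdr19, chr5:65651593-65651652 (mm9, plus strand), probe bases 1 to 30: ttaaataacTTTTATatttaagtatctcct
Shh, chr5:28783983-28784042 (mm9, minus strand), probe bases 16 to 45: gaactgtactcacagtgagggaaagattat
Gas1, GC-rich probe, chr13:60277268-60277327 (mm9, minus strand), probe bases 16 to 45: ggcggcggcgctgctgcggcgggcggccgc
Gas1, downstream probe, chr13:60276399-60276458 (mm9, minus strand), probe bases 20 to 49: acaatgcatgttTTTTATcctaaagctcgg
Nphp4, middle probe, chr4:151937097-151937156 (mm9, plus strand), probe bases 28 to 57: cagaacaaactgTTTTATaaatggtttcca
Nphp4, downstream probe, chr4:151937196-151937255 (mm9, plus strand), probe bases 15 to 44: atttgccatgtaTTTTATtatactgggatt
Cdon, downstream probe, chr9:35315141-35315200 (mm9, plus strand), probe bases 31 to 60: tagttttgacaggTTTTATttggttggcat
Ptch1, downstream probe, chr13:63610298-63610357 (mm9, minus strand), probe bases 1 to 30: catttggatgTTTTAATttgtaaaagaaaa
Rpgrip1l, chr8:93741433-93741492 (mm9, minus strand), probe bases 19 to 48: gacaaaaataagTTTTATggtttacagtgt
Ift80, chr3:68696592-68696651 (mm9, minus strand), probe bases 17 to 46: atgtaccttttcTTTTATgaaatgttggac
Smo, upstream probe, chr6:29710919-29710978 (mm9, plus strand), probe bases 16 to 45: cacacacagacacacacacacatacactct
Smo, downstream probe, chr6:29711225-29711284 (mm9, plus strand), probe bases 16 to 45: tcatagtgccccacattcaagaaccagaca
Which exon or UTR a probe lies in was not determined here, because no mm9 annotation was used.

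With CPEB2 IgG, 19 of the 43 genes were higher and 8 lower in limma at an adjusted p of 0.05, against 21.2% higher and 20.4% lower over all 19698 genes tested. Without Wdr19 and Shh the count was 17 higher and 8 lower of 41. Nothing is read from these counts or from those of each role below, since the list was built on this contrast. The shares over all genes, 21.2% and 20.4%, stand beside the counts of each role as well. The median log2 difference (CPEB2 IgG minus control IgG, after every array was set to a common 75th percentile) was 0.72 over the list and -0.11 over all genes. The 11 Hedgehog genes had a median of 1.502, with 7 higher and 1 lower, and the 32 cilium genes had a median of -0.08, with 12 higher and 7 lower. The medians of the Hedgehog and cilium genes were thus 1.58 apart on the log2 scale. Each of these groups holds a gene that chose the list, and without Wdr19 and Shh the median over the list was 0.49. Genes of the same pathways outside the list had the opposite order, with medians of -0.08 for Hedgehog and 0.25 for cilium genes. The cilium median was above 0 with quantile normalization and with median centring, where the median of all genes moved up by 0.13 and 0.23. Both CPEB2 IgG arrays lay above both control IgG arrays for 23 genes and below them for 16, against 33.7% and 38.2% of all genes. The study selected transcripts on raw signal, fold and a CPE in the 3′UTR. Its signal and fold limits were applied here as a mean fold above 1.5 and an unscaled signal over 1000 on 1 or both CPEB2 IgG arrays. The methods do not say how the experiments were combined, and the CPE criterion was not applied. Both limits were met by 13 of the 43 genes, against 13.9% of 24164 genes. Those 13 were Ttc21b, Ift122, Ift52, Ift80, Ttc8, Bbs4, Arl13b, Tulp3, Rpgrip1l, Nphp4, Smo, Cdon and Gli3. Tulp3 (1175 and 989) and Rpgrip1l (499 and 1101) exceeded the signal limit on 1 array only. Wdr19 and Shh did not pass, because their signals never reached 1000. With no filter on dim probes, which raised the number of genes tested to 24164, Ift57, Bbs5, Bbs10, Arl6, Rpgrip1l, Mks1, Nphp4 and Gli1 lost their calls at the same log2 differences. Median centring ended the calls of Ift57 and Arl6, the percentile over probes detected on all arrays those of Bbs10 and Nphp4, and normexp correction that of Arl6.

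**Figure D1:**
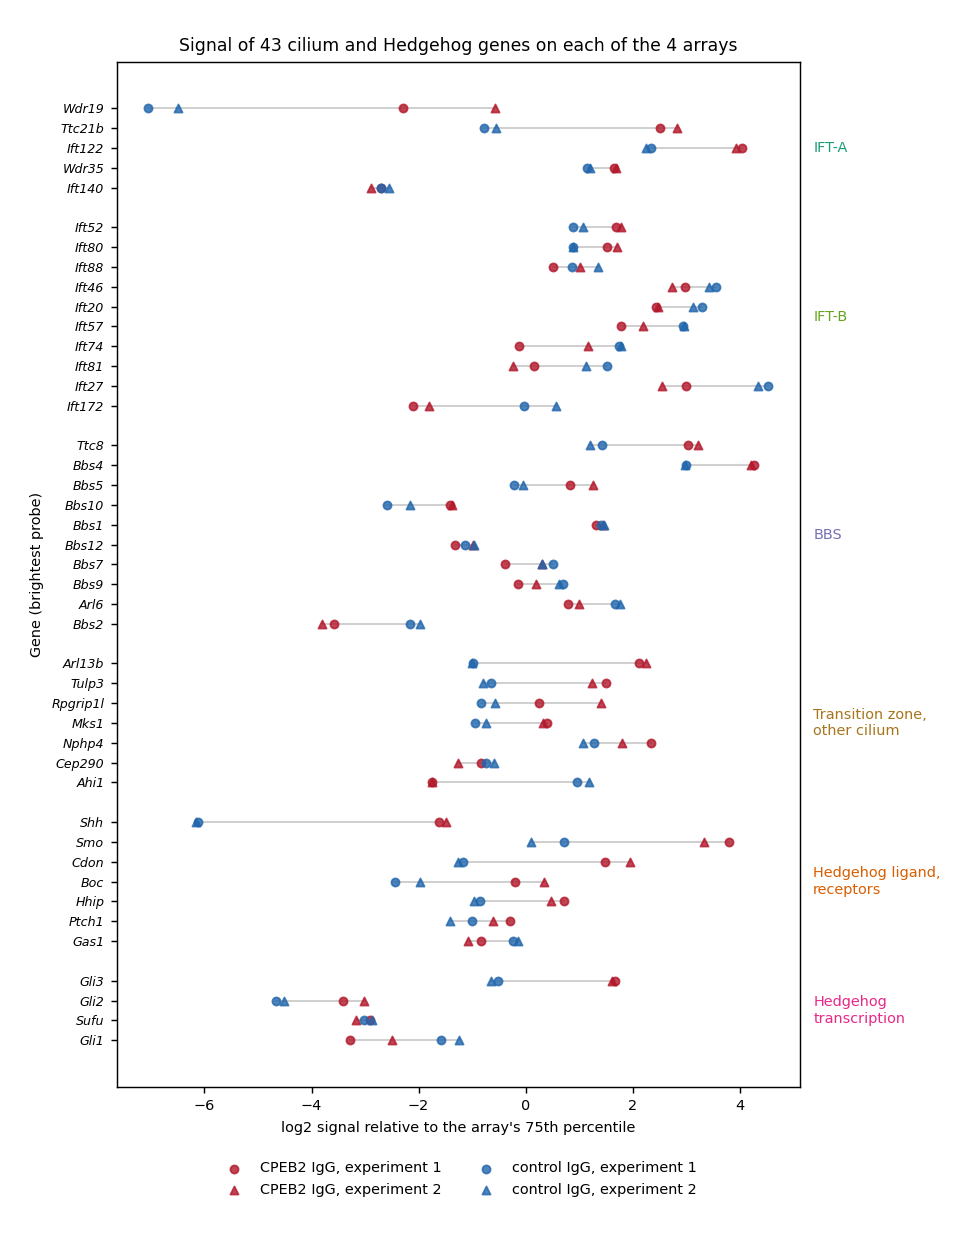
The x axis gives the log2 signal of each gene's brightest probe on each of the 4 arrays, relative to the array's 75th percentile, and the y axis lists the 43 genes by role, with the largest difference at the top of each role. Red points are CPEB2 IgG, blue points control IgG, circles experiment 1, triangles experiment 2, and a grey line spans the 4 values. The CPEB2 IgG points of Wdr19 and Shh lie far to the right of their control IgG points, and those of Ahi1 and Ift172 lie to the left.

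Of the IFT-A genes, 3 of 5 were higher with CPEB2 IgG and none was lower, with a median log2 difference of 1.69. Wdr19, which chose the list, is among the 3 and counts in this median. Wdr19 encodes the IFT-A core subunit IFT144. Its signal was 85.9 and 281 on the CPEB2 IgG arrays and 3.34 and 4.74 on the control IgG arrays. The 3.34 is a surrogate value that the scanner software had put in place of the spot on the control IgG array of experiment 1. The groups lay far apart, but neither control IgG array was well above background, so the fold is uncertain. The lowest signals well above background on those arrays were 12.1 and 13.6. With these in place of its control signals, Wdr19 was 12.5-fold higher with CPEB2 IgG, as a mean of the experiments. That is no strict bound, since some brighter probes were not well above background either, such as Gli2 at 17.6 with control IgG in experiment 1. Its log2 difference was 4.77 in experiment 1, where the control value is that surrogate, and 5.91 in experiment 2. Its place among all genes is not set, since the control signals are background. After normexp background correction with an offset of 50, which is above both of its control signals, the difference was 1.65.

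Ttc21b encodes IFT139, a peripheral IFT-A subunit. Its brightest probe gave 2359.5 and 2952 with CPEB2 IgG against 258 and 289 with control IgG, a log2 difference of 3.33 ± 0.07 (SD, n = 2 experiments). The groups did not overlap and the call was higher. Ift122, an IFT-A core subunit, gave 6871 and 6353 against 2245 and 2004, a log2 difference of 1.69 ± 0.01 (SD, n = 2 experiments), and was also called higher. Wdr35, a peripheral subunit like Ttc21b, differed by 0.49 ± 0.02 (SD, n = 2 experiments) and did not pass the threshold. Ift140, a core subunit and the lowest of the 5, gave 64.1 and 56.6 with CPEB2 IgG against 68.2 and 72.6 with control IgG. Its groups lay close together, with a log2 difference of -0.17 ± 0.23 (SD, n = 2 experiments).

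None of the 10 IFT-B genes was higher and 4 were lower, with a median log2 difference of -0.86. Ift172, a subunit that links the IFT-B train to its turnaround at the tip, gave 97.4 and 119 with CPEB2 IgG against 432 and 631 with control IgG. Both CPEB2 IgG values lay below both control values, and the log2 difference was -2.22 ± 0.22 (SD, n = 2 experiments), the lowest of the complex. Ift27, a small GTPase of IFT-B that works in the exit of BBS cargo, was lower by a log2 difference of -1.67 ± 0.18 (SD, n = 2 experiments). Ift81, which binds tubulin together with Ift74, had -1.36 ± 0.01, and Ift57, a peripheral subunit, had -0.96 ± 0.28 (SD, n = 2 experiments each). The calls of Ift81 and Ift57 were lost without the control IgG array of experiment 1. Ift81 also lost its call without the CPEB2 IgG array of experiment 2, and Ift57 without the CPEB2 IgG array of experiment 1 or the control IgG array of experiment 2.

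The other 6 IFT-B genes did not pass the threshold. Ift74, the partner of Ift81, gave 386 and 937 with CPEB2 IgG against 1484 and 1453 with control IgG. Its CPEB2 IgG arrays differed from each other by more than its control arrays, and the log2 difference was -1.86 in experiment 1 and -0.61 in experiment 2. Ift52, a core subunit that holds the complex together, gave 1351 and 1429 against 820.2 and 886, the highest difference of the IFT-B genes at 0.76 ± 0.06 (SD, n = 2 experiments). Ift80, whose protein sits in the peripheral part of the complex, had a log2 difference of 0.72 ± 0.12 (SD, n = 2 experiments). Ift52 and Ift80 passed the signal and fold limits although limma did not call them. Ift88, Ift46 and Ift20, subunits of the IFT-B train, had log2 differences of -0.35, -0.64 and -0.76.

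**Figure D2:**
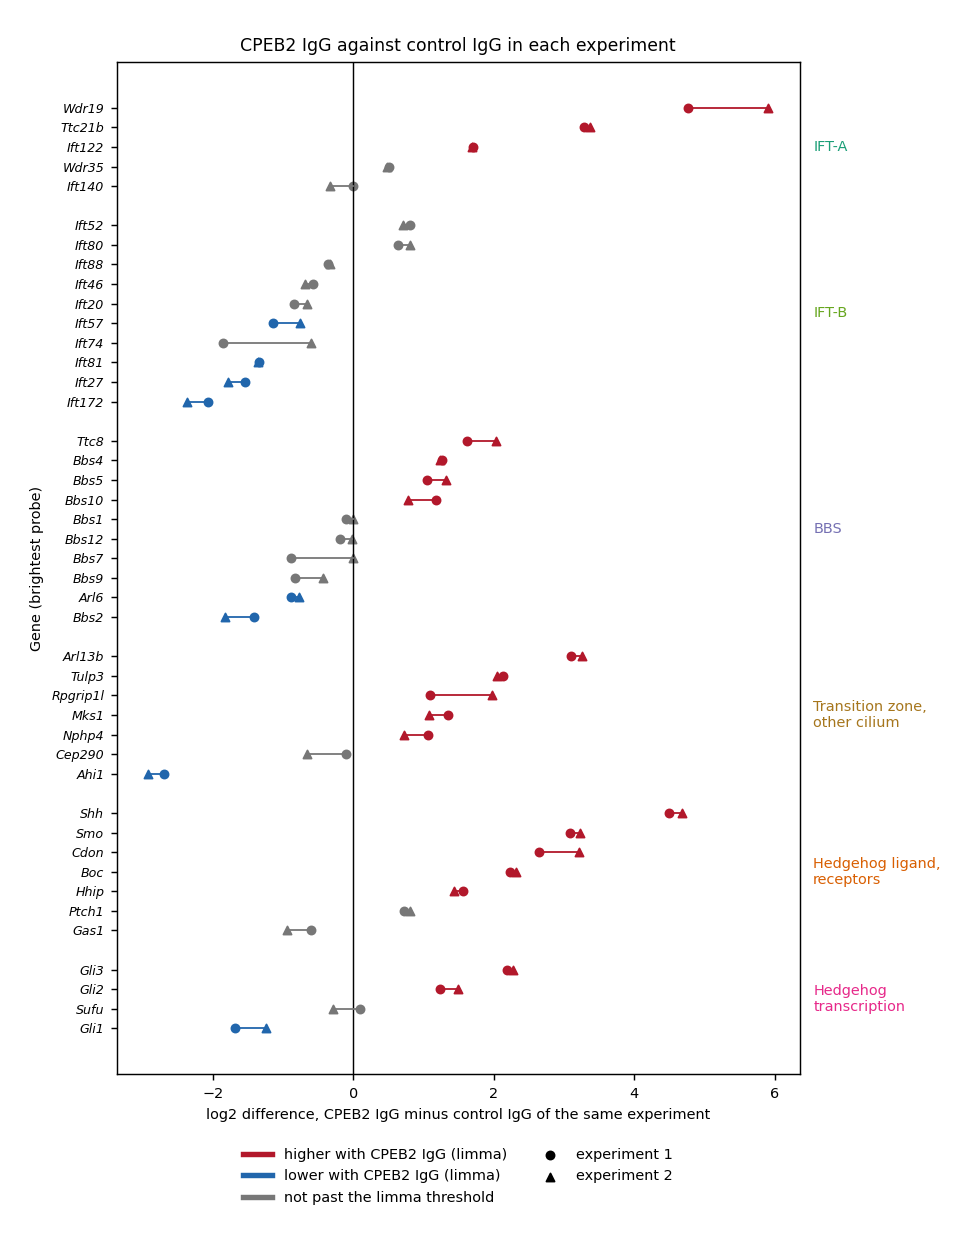
The x axis gives the log2 difference between CPEB2 IgG and control IgG of the same experiment, and the y axis lists the 43 genes by role. Circles are experiment 1, triangles experiment 2, the line joins them, red and blue mark genes called higher and lower by limma, and grey marks genes that did not pass the limma threshold. Of the IFT-B genes, 4 are blue and none is red, whereas 5 of the 7 ligand and receptor genes of the Hedgehog pathway are red, Shh among them.

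The BBS genes were split, with 4 higher, 2 lower and a median log2 difference of -0.08 over 10 genes. Ttc8, the BBSome subunit BBS8, gave 3432 and 3894 with CPEB2 IgG against 1183 and 969 with control IgG. Its groups did not overlap, and the log2 difference of 1.82 ± 0.29 (SD, n = 2 experiments) was the highest of the group. Bbs4, a subunit that joins the BBSome late, was higher by 1.25 ± 0.02, and Bbs5, a subunit that binds membrane lipids, by 1.18 ± 0.19 (SD, n = 2 experiments each). Bbs10, a chaperonin-like protein needed to assemble the BBSome, was higher by 0.97 ± 0.28 (SD, n = 2 experiments). The other Bbs10 probe had 0.04 ± 0.17 (SD, n = 2 experiments). The Bbs10 call was lost without any 1 of the 4 arrays, and that of Bbs5 without either control IgG array.

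Bbs2, a core BBSome subunit, gave 35.1 and 29.9 with CPEB2 IgG against 98.9 and 108 with control IgG, and was lower. The groups did not overlap, and the log2 difference was -1.62 ± 0.29 (SD, n = 2 experiments). Arl6, the GTPase that brings the BBSome to membranes, was lower by a log2 difference of -0.83 ± 0.08 (SD, n = 2 experiments), a call lost without the CPEB2 IgG array of experiment 1 or either control IgG array. The other Arl6 probe had -0.31 ± 0.48 (SD, n = 2 experiments). Bbs1, the subunit that Arl6 binds, had -0.06 ± 0.06, and Bbs12, an assembly protein like Bbs10, had -0.11 ± 0.11 (SD, n = 2 experiments each). Bbs7 and Bbs9, both core subunits, had log2 differences of -0.45 ± 0.62 and -0.64 ± 0.28 (SD, n = 2 experiments). None of these 4 passed the threshold. A dimmer Bbs7 probe, well above background on all arrays, had -1.15 ± 0.13 (SD, n = 2 experiments), and its groups did not overlap. Subunits of the same complex were thus called in opposite directions, with Ttc8, Bbs4 and Bbs5 higher and Bbs2 lower.

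Among the 7 genes of the transition zone and other cilium functions, 5 were higher and 1 lower, with a median log2 difference of 1.21. Arl13b, a GTPase of the ciliary membrane that is a common marker of cilia, gave 1798 and 1989 with CPEB2 IgG against 222 and 211 with control IgG. The groups lay far apart, with a log2 difference of 3.18 ± 0.11 (SD, n = 2 experiments). Tulp3, which hands membrane receptors to IFT-A for entry, was higher by 2.09 ± 0.07 (SD, n = 2 experiments). Rpgrip1l, a scaffold of the transition zone, was higher by 1.09 in experiment 1 and 1.97 in experiment 2. Mks1, of the complex mutated in Meckel syndrome, was higher by 1.21 ± 0.20, and Nphp4, of the nephronophthisis complex, by 0.89 ± 0.24 in its brightest probe (SD, n = 2 experiments each). These last calls were less stable. That of Rpgrip1l was lost without the CPEB2 IgG array of experiment 2 or either control IgG array, that of Nphp4 without the CPEB2 IgG array of experiment 1 or either control IgG array, and that of Mks1 without the control IgG array of experiment 1.

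Cep290, a large transition zone protein, had a log2 difference of -0.39 ± 0.39 (SD, n = 2 experiments) and was not called. Ahi1, also known as jouberin, a transition zone protein mutated in Joubert syndrome, was the lowest of the whole list. Its mean signal over 10 spots was 124.4 and 124.0 with CPEB2 IgG against 859 and 958 with control IgG. The groups did not overlap, and the log2 difference was -2.82 ± 0.16 (SD, n = 2 experiments), which is 7.04-fold lower with CPEB2 IgG.

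Of the Hedgehog ligand and receptor genes, 5 of 7 were higher and none was lower, with a median log2 difference of 2.27. Shh, which chose the list, is among the 5 and counts in this median. Shh, the ligand, gave 136 and 149 with CPEB2 IgG against 6.38 and 5.93 with control IgG. The control arrays were not well above background. With the lowest signal well above background there in place of its control signals, Shh was 11.5-fold higher with CPEB2 IgG. As for Wdr19, that is no strict bound. The measured log2 difference was 4.49 in experiment 1 and 4.68 in experiment 2, with the same limit. With normexp correction it was 1.48. Smo, the membrane protein that turns the pathway on inside the cilium, gave 5809.8 and 4179 against 725 and 453. The groups did not overlap, and the log2 difference was 3.16 ± 0.10 (SD, n = 2 experiments).

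Cdon and Boc are related coreceptors that bind Shh together with Ptch1. Cdon gave 1162 and 1612 with CPEB2 IgG against 196 and 176 with control IgG, a log2 difference of 2.93 ± 0.40 (SD, n = 2 experiments). Boc was higher by 2.27 ± 0.05 (SD, n = 2 experiments). Neither gene's groups overlapped. Hhip, a membrane protein that binds and holds back the ligand, was higher by 1.502 ± 0.09 (SD, n = 2 experiments). Ptch1, the receptor itself and a target gene of the pathway, gave 342 and 274 against 221 and 159.7 with its brightest probe, a log2 difference of 0.76 ± 0.06 (SD, n = 2 experiments) that was not called. Gas1, the 3rd coreceptor and the lowest of these genes, gave 235 and 198 with CPEB2 IgG against 377 and 386 with control IgG in its brightest probe. That log2 difference was -0.77 ± 0.24 (SD, n = 2 experiments) and was not called, and its other probe went the opposite way, as described further on.

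The 4 genes of Hedgehog transcription were 2 higher, 1 lower and 1 uncalled. Gli3, the main repressor among the Gli factors, gave 1330.2 and 1276 with CPEB2 IgG against 309 and 269.5 with control IgG. Its groups lay apart, with a log2 difference of 2.23 ± 0.06 (SD, n = 2 experiments). Gli2, the main activator, was dim, with 39.1 and 51.5 against 17.6 and 18.7. The control IgG array of experiment 1 was not well above background for Gli2. Its log2 difference was 1.36 ± 0.18 (SD, n = 2 experiments). The call was lost without that array, and also under normexp correction, where the difference was 0.34. Gli1, an activator that is itself a target of the pathway, gave 42.99 and 73.6 with CPEB2 IgG against 147 and 178 with control IgG, and was lower by a log2 difference of -1.47 ± 0.31 (SD, n = 2 experiments). That call was lost without the control IgG array of experiment 2. Sufu, the inhibitor that holds Gli proteins in the cytoplasm, was near the control level at -0.10 ± 0.28 (SD, n = 2 experiments).

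**Figure D3:**
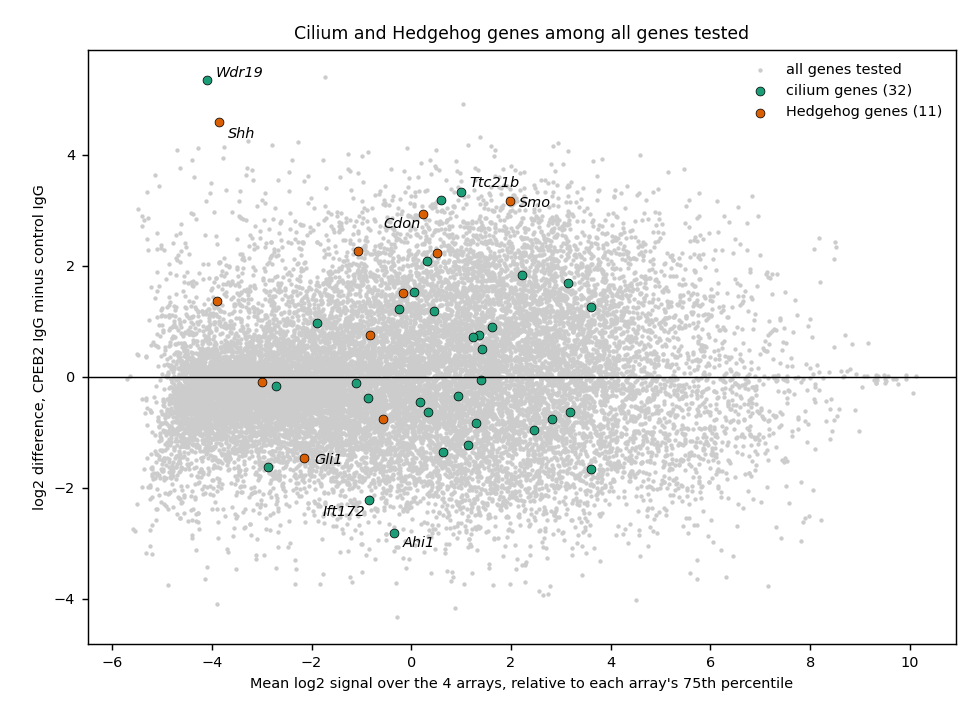
The x axis gives the mean log2 signal of a gene over the 4 arrays, relative to each array's 75th percentile, and the y axis its log2 difference between CPEB2 IgG and control IgG. Grey points are the 19698 genes tested, green points the 32 cilium genes and orange points the 11 Hedgehog genes. Wdr19 and Shh sit at the top left, among the dim genes, and Ahi1 and Ift172 are the lowest of the list.

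Shh and Ahi1 were each printed on 10 spots of every array, so that the agreement of spots within an array could be read directly. On the CPEB2 IgG arrays the Shh spots ran from 123 to 149 with a median of 136 in experiment 1 and from 133 to 161 with a median of 150.2 in experiment 2. All 10 were well above background on both arrays. On the control IgG arrays they ran from 3.76 to 16.2 with a median of 5.95 and from 3.65 to 10.51 with a median of 6.23, and 0 of 10 were well above background on either array. The scanner software had put its own surrogate value in place of 3 and 2 of these spots. No control spot of Shh reached the lowest CPEB2 IgG spot. The SD of the log2 signal over spots was 0.08 and 0.09 with CPEB2 IgG against 0.77 and 0.53 with control IgG, so the measured level of Shh on the control arrays was far less certain than on the CPEB2 IgG arrays. For Ahi1 the spots ran from 109.8 to 135 and from 116 to 136 with CPEB2 IgG, and from 809 to 903 and from 911 to 1015 with control IgG. Spot SDs of Ahi1 were 0.05 to 0.11 on the log2 scale on all 4 arrays. Spots of an array share its RNA and are not replicates of an antibody.

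**Figure D4:**
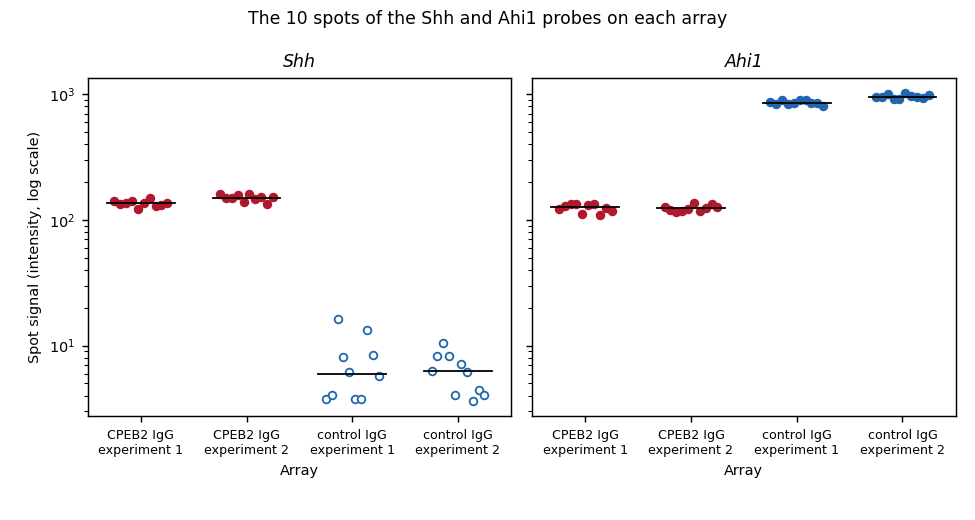
The y axis gives the signal of each spot on a log scale, and the x axis the 4 arrays, with red for CPEB2 IgG and blue for control IgG. Filled points were well above background, open points were not, and black lines are medians. The control IgG spots of Shh are all open and scattered between 3.65 and 16.2, whereas all Ahi1 spots are filled and close together.

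Of the 18 genes with several probes, 15 had several that were well above background on at least 2 arrays. In 14 of these 15 (93.3%) the probe farthest downstream on the gene's strand had a higher log2 difference than the probe farthest upstream, and the median of downstream minus upstream was 1.18. Over all 5416 genes with such probes the share was 71.9% and the median 0.48, so the direction was common on these arrays. The exception was Ift74, with -0.41 upstream and -1.24 downstream. In 8 of the 15 genes (53.3%) the probes differed by more than 1 on the log2 scale, against 40.9% of all genes with several such probes. In 2 of them (13.3%), Gas1 and Nphp4, the probes had opposite signs, against 37.5%. The negative value of Nphp4 came from its dim upstream probe, at 0.28 in experiment 1 and -0.79 in experiment 2, so its sign is uncertain. That probe is annotated with a transcript record other than that of the remaining Nphp4 probes.

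The downstream probe of Gas1 gave 412 and 482 with CPEB2 IgG against 48.9 and 52.0 with control IgG. That is a log2 difference of 3.20 ± 0.06 (SD, n = 2 experiments), where the GC-rich probe 869 bases upstream had -0.77. The GC content was 38.3% in the downstream probe and 85% in the other. When the mean of both probes stood for Gas1 in place of the brightest, its log2 difference turned to 1.21. The downstream probe of Nphp4 gave 512 and 858 against 35.3 and 40.7, a log2 difference of 4.18 ± 0.34 (SD, n = 2 experiments). The middle probe, which was the brightest and starts 99 bases upstream, gave 2103 and 1459 against 1069 and 896, and the upstream probe gave 24.3 and 15.5 against 21.2 and 27.1, where the groups overlapped. The GC content of the Nphp4 probes was 20% downstream and 45% in the middle.

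The downstream probe of Smo was its brightest, and the upstream probe, with a run of CA letters, gave 1517 and 1598 with CPEB2 IgG against 674 and 2203 with control IgG. The upstream log2 difference was 1.25 in experiment 1 and -0.44 in experiment 2, so the probes of Smo agreed in direction in the first experiment and not in the other. Ptch1 had 331.6 and 723 against 93.6 and 64.9 in its downstream probe, a log2 difference of 2.70 ± 1.13 (SD, n = 2 experiments), where its brightest probe had 0.76. That probe is annotated with a cDNA record other than the reference transcript of Ptch1. The upstream probes of Ttc21b, Cdon, Arl13b and Ift122 had log2 differences of 0.26, 1.04, 1.34 and 0.51, each below the downstream values of 3.33, 2.93, 3.18 and 1.69. The upstream probe of Arl13b gave 551 and 868 with CPEB2 IgG against 336 and 241 with control IgG, that of Ift122 gave 1666 and 1239.7 against 1016 and 1077, that of Ttc21b gave 28.5 and 26.7 against 19.2 and 29.7, and that of Cdon gave 33.6 and 41.3 against 21.8 and 16.2. With the mean of the detected probes in place of the brightest, the log2 difference was 1.80 for Ttc21b, 1.78 for Smo, 1.61 for Nphp4, 1.102 for Ift122 and 1.73 for Ptch1, all called higher, and Bbs10 (0.51) and Arl6 (-0.57) lost their calls. The CPEB2 IgG values of the Ttc21b upstream probe overlapped with its control values, whereas those of Arl13b, Ift122 and Cdon did not.

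The other 3 genes with several probes had a probe that was well above background on 1 array only. They were Hhip (12.7 and 18.7 with CPEB2 IgG, 5.497 and 19.0 with control IgG), Sufu (6.80 and 10.7 against 30.9 and 11.4) and Gli1 (7.22 and 19.6 against 15.6 and 17.8). A 3rd probe of Gas1, the farthest upstream, was as dim (15.1 and 13.4 against 17.3 and 8.86). No order is read from these values.

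**Figure D5:**
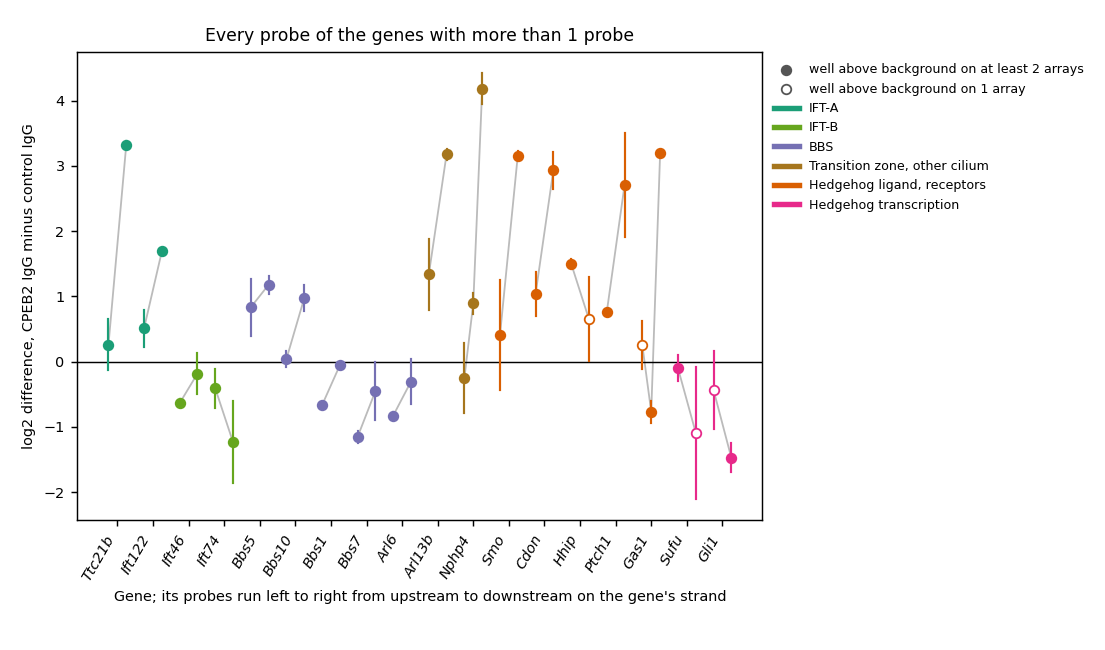
The y axis gives the log2 difference between CPEB2 IgG and control IgG for every probe of the 18 genes with more than 1 probe, and the x axis the genes, with their probes from upstream to downstream. Points are the mean of 2 experiments, vertical lines span the experiments, filled points were well above background on at least 2 arrays and open points on 1. The grey lines rise from left to right in 14 of the 15 genes that have several filled points, when the first and last filled points are compared.

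CPE letters stood in 8 of the 63 probes of these genes (12.7%), against 5.21% of 33256 probes with a gene symbol. The 8 probes belong to 7 genes, Wdr19, Nphp4 (2 probes), Ptch1, Gas1, Cdon, Ift80 and Rpgrip1l, and their bases are among those printed above. Their log2 differences were above 0 in both experiments in all 8, with a median of 2.82 and a lowest value of 0.72 (Ift80). The 51 other probes that were well above background on at least 2 arrays had a median of -0.06. Of them, 25 (49.0%) were above 0 as a mean of the experiments and 22 in both experiments. Over all genes, 1400 such probes with the letters had a median of 0.53 and 66.6% above 0, and 25311 without them had -0.17 and 42.8%. Above 0 in both experiments were 817 of the 1400 and 8560 of the 25311. In the 4 genes with probes of both kinds, Nphp4, Ptch1, Gas1 and Cdon, the difference was higher with the letters, by 1.90 to 3.97. For Nphp4 this averages 2 probes with the letters, at 0.89 and 4.18, against -0.25 without. Probes with the letters had the higher difference in 72.0% of 571 genes on the whole array. In these 4 genes they were also the downstream probes, and downstream probes were higher in 71.9% of 5416 genes. The search covers the 60 bases of a probe on its own strand, and a match says nothing of the rest of the transcript. Wdr19 was chosen for its ratio, so its place among these probes is no finding.

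Probe composition moved with the log2 difference on the whole array. Genes whose brightest probe held at most 40% GC had a median of 0.29, with 2905 higher and 1083 lower of 9005, and those above 40% had -0.36, with 1269 higher and 2937 lower of 10693. Among the 43 genes the medians were 0.76 for the 25 at most 40% (12 higher, 3 lower) and -0.13 for the 18 above 40% (7 higher, 5 lower). The Wdr19 probe held 18.3% GC and the Shh probe 36.7%. After each array was centred within bins of probe GC content, Wdr19 had 4.52 and Shh 4.35. The median of the 8 probes with CPE letters was then 2.00, the lowest was -0.10 (Ift80), and the medians over all genes were 0.09 with and -0.22 without the letters. Under that centring other probes became the brightest of Smo and Arl13b, whose differences were then 0.56 and 1.101 and lost their calls, as did Rpgrip1l (0.72) and Bbs5 (0.36). The part of probe composition in the members' values was not tested.

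The pathways hold more genes than the list. Of 68 others, 66 were tested, with 18 higher and 8 lower and a median log2 difference of 0.07. Over all genes tested, 21.2% were higher and 20.4% lower, and nothing is read from the counts of these genes. The cilium genes among them gave 14 higher and 6 lower of 44 tested, with a median of 0.25. Higher were Tmem67 (4.01), Tmem216 (3.55), Tctn2 (3.36), B9d1 (2.31), Tmem138 (2.20), Tmem237 (2.06) and Tmem231 (1.39), which encode proteins of the transition zone or its assembly, and lower were Cc2d2a (-1.74) and B9d2 (-1.23) of the same gate. The IFT-A gene Ift43 was higher at 1.42. Of the IFT-B genes outside the list, Traf3ip1 (2.71), Ttc26 (2.61) and Ttc30a1 (1.66) were higher and Cluap1 (-2.52) was lower. Traf3ip1 was dim with control IgG, at 21.4 and 17.6, and had 2.20 in experiment 1 and 3.22 in experiment 2, so its fold is uncertain. Probes of Ttc30a1 may share sequence with its close copies Ttc30a2 (-0.75) and Ttc30b (-0.04), so their values are uncertain. The dynein light intermediate chain Dync2li1 (-1.02), the centriole protein Ofd1 (-1.77) and the distal appendage protein Cep164 (-1.27) were lower. The other higher genes were the BBS genes Lztfl1 (1.25) and Mkks (0.89) and the ciliary phosphatase Inpp5e (1.42).

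Of 22 further Hedgehog genes tested, 4 were higher, 2 were lower and 16 were not called, with a median of -0.08. The shares over all genes were 21.2% higher and 20.4% lower. Higher were the ubiquitin ligase adaptor Spop (2.21), the kinase Ulk3 (2.17), the ligand-release protein Scube3 (1.53) and the ligand Ihh (0.84), and lower were the cullin Cul3 (-1.76), partner of Spop, and the ciliary protein Evc (-1.001). The Ihh probe gave 77.4 and 85.4 with CPEB2 IgG against 44.0 and 50.4 with control IgG, and these groups did not overlap. Kif7, the kinesin that organises the ciliary tip, had -0.16 ± 0.25, and Gpr161, a ciliary receptor that restrains the pathway, had -0.34 ± 0.30 (SD, n = 2 experiments each). Neither was called.

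Adcy3, an adenylyl cyclase used as a marker of neuronal cilia, gave 27.8 and 33.9 with CPEB2 IgG against 30.7 and 37.8 with control IgG, and Sstr3, a receptor of neuronal cilia, gave 1169 and 1108 against 1942 and 1627. Neither was called. Multiciliated ependymal cells share many of these genes, and of their 7 markers 6 were tested, with 1 higher (Foxj1, 1.03), 2 lower (Ccdc153, -2.40, and Rsph1, -1.30) and a median of -0.55. Choroid plexus markers were 2 higher and 0 lower of 5, with a median of 0.41. Their level followed the experiment more than the antibody. Ttr, the main choroid plexus transcript, gave 6966 and 11608 on the CPEB2 IgG and control IgG arrays of experiment 1 and 291 and 289 on those of experiment 2. Between the experiments, fewer cells of a type and less RNA per cell cannot be told apart in RNA precipitated from a tissue lysate. Within an experiment, both antibodies received the same lysate. Neuron markers were 1 higher and 2 lower of 7, astrocyte markers 3 and 2 of 6, and oligodendrocyte markers 0 and 2 of 5. Microglia markers were 1 and 2 of 5, and endothelial markers 0 and 0 of 4. The shares over all genes, 21.2% higher and 20.4% lower, stand beside the counts of every marker list, and nothing is read from those counts. All 7 neuron markers were tested, with signals on the 4 arrays from 914 (Slc17a7) to 41210.1 (Syn1). The part of any cell type in the members' values was not tested.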

How the data were processed

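The authors deposited one Agilent Feature Extraction 10.5.1.1 file per array, whose values are background-subtracted spot intensities with no scaling between arrays. Probe positions come from the mm9 annotation in the files. From these intensities, control spots and spots flagged as non-uniform or population outliers were left out. Signals were put on the log2 scale, spots of a probe were averaged, and each array was scaled to its 75th percentile over 55615 complete probes. The brightest probe well above background on at least 2 arrays stood for a gene. limma 3.58.1 (R 4.3.3) was fitted to 19698 genes and the experiment entered as a block, which left 1 residual degree of freedom. p-values were adjusted by Benjamini-Hochberg with a threshold of 0.05. The fit was also run on simulated data with known changes and no effect of the experiment. That run checked the code and says nothing of the calls made here. The block follows the methods, where a lysate was divided between antibodies; arrays of the same number deviated together (correlation 0.20). Members, gene lists and tests were chosen with earlier results of these data known. All members may be named. Array values are given for Wdr19, Shh, the extremes of each role, dim probes and genes whose probes disagree. Python 3.11.15 with pandas 2.3.3 was used for summaries. The number of arrays limits the precision.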

Additional observations from a re-analysis of the deposited data

How the results depend on the processing

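With the experiments not paired (no replicate block), limma called 21 members higher and 10 lower, against 19 and 8 with the block, and 20 and 10 of the other pathway genes, against 18 and 8. No member lost its call without the block. The cilium median of -0.08 turned to 0.030 with quantile normalization and 0.15 with median centring, and was -0.038 with normexp correction, -0.19 with the percentile taken over probes detected on all arrays, -0.20 with centring within GC bins and -0.14 with the mean of the probes. The Hedgehog median of 1.502 was 1.61, 1.73, 1.29, 1.39, 1.27 and 1.73 under the same alternatives in that order. The gap between them, -1.58, was -1.32 with normexp correction, -1.46 with GC bins and -1.87 with the mean of the probes. Leaving out either experiment, as values with no test, gave -0.054 to -0.013 for the cilium median and 1.49 to 1.57 for the Hedgehog median. Members lower were 5 with no filter on dim probes and 13 with an intensity trend, and other pathway genes lower were 4 with no filter. Over all genes, no filter gave 2265 higher and 1837 lower against 4174 and 4020, and median centring raised the share of higher calls from 50.9% to 61.2%. With single arrays left out, where the lone array of an antibody is assumed to vary like the others, members lower were 5 to 8 and other pathway genes lower 4 to 10. The 5 came without either control IgG array. Of the 19 higher calls, 13 held without each of the 4 arrays in turn, as did 4 of the 8 lower calls. Members past the signal and fold limits were 6 rather than 13 with a raw signal above 2000. Gas1 turned to 1.21 with the mean of its probes. The other values per gene kept their direction or were uncalled values near 0 (14 such values in 5 genes, Ift140, Ift80, Bbs1, Bbs12 and Sufu). For these changes the cause was not tested. Arrays with 2 values an antibody, and control signals of Wdr19 and Shh under background, limit what the folds can show.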
